A study of Mus musculus with 6 samples.

Results

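The 7 genes described here encode enzymes that handle proline, valine, lysine and GABA: Aldh4a1, Aldh5a1, Aldh6a1, Aldh7a1 and Aldh18a1, all of the aldehyde dehydrogenase family, and the proline partner enzymes Pycr1 and Prodh. They were chosen by symbol and function, and all 7 were found among the 21606 genes of the count table. RNA was counted in ALDHbr marrow cells, the fraction of bone marrow in which aldehyde dehydrogenases are most active and which is known to be rich in progenitors, from WT C57BL/6 mice, a common inbred laboratory strain. There were 3 libraries from male and 3 from female mice, and the labels name no treatment in either sex. The labels give no ages and do not say whether each library is a separate animal or a pool, and the p-values below therefore speak only for the variation among these libraries, part of which may be technical. The question is whether the level of each gene differs by sex.

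All 7 enzymes act mainly in mitochondria and meet at a few small aldehydes or at their cyclic forms. In proline synthesis, ALDH18A1 turns glutamate into pyrroline-5-carboxylate and PYCR1 reduces it to proline. In proline breakdown, PRODH oxidises proline back to pyrroline-5-carboxylate and ALDH4A1 oxidises that to glutamate. ALDH6A1 acts late in valine breakdown, ALDH7A1 in lysine breakdown and in making betaine, and ALDH5A1 removes succinate semialdehyde, the product of GABA breakdown. ALDHbr cells are defined by the summed aldehyde dehydrogenase activity of the cell, which does not by itself say which members of the family are expressed.

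The libraries held 679724 to 880074 counts in males and 1199551 to 1475224 in females. All 6 matched their labelled sex, with Xist at 0 to 3.33 CPM (counts scaled to a common library size) in male libraries and 170 to 229 CPM in female ones, and Ddx3y at 75.7 to 97.6 CPM in male libraries and 0 in female ones. The 7 myeloid progenitor markers, such as Mpo and Cd34, were all counted in both sexes and summed to 13430 to 14430 CPM in male and 15050 to 15770 CPM in female libraries. These sums did not overlap, and of the 7, all tested, 0 were called by the test below. The 8 erythroid markers summed to 215 to 348 CPM in male and 88.7 to 109 CPM in female libraries, and 2 of the 2 tested were higher in males. The barcode list of the pooled library also names lung samples, not analysed here, and the 5 lung epithelial markers summed to 226 to 452 CPM in male and 142 to 201 CPM in female libraries. The 4 megakaryocyte markers summed to 36.1 to 113 CPM in male and 21.7 to 26.6 CPM in female libraries, with the 1 tested higher in males, and the 5 stromal markers to 96.7 to 236 CPM in male and 63.1 to 97.4 CPM in female libraries. The 7 B lineage markers summed to 64.9 to 73.4 CPM in male and 93.4 to 98.5 CPM in female libraries, with 1 of 2 tested lower in males. The 4 T and natural killer cell markers measured summed to 154 to 171 CPM in male and 129 to 145 CPM in female libraries, with 2 of them at 0 in every female library and the 1 tested not called. No erythroid, megakaryocyte, lung, stromal or B lineage marker was at 0 in every library of a sex. Of the 5 lung and 3 stromal markers tested, 0 were called. Other sums overlapped between the sexes, with 0 markers called. They were 2126 to 2501 CPM in male and 2133 to 2494 in female libraries for 4 monocyte and macrophage markers. For 5 plasma cell markers they were 795.5 to 1037 and 966 to 997 CPM, and for 5 mature neutrophil markers 15.7 to 36.6 and 25.7 to 28.5 CPM. Of these 5 neutrophil markers, only 1 was tested, and 1 was at 0 in every male library. The part of these other cells in the differences below was not tested, and in bulk RNA fewer cells of a type and less RNA per cell cannot be told apart.

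Enough counts for a test of the difference between the sexes were found for 6 of the 7 genes, and none of the 6 passed. In edgeR's quasi-likelihood fit over 8460 genes, 0 of the 6 had a Benjamini-Hochberg adjusted p under 0.05, where 0.579% of all tested genes did (0.426% higher and 0.154% lower in males). DESeq2 and limma-voom also called 0 of the 6. Without adjustment, 0 of the 6 were under 0.05 by edgeR, against 11.3% of all tested genes (6.83% higher and 4.5% lower in males). In 5 of the 6 the fold change lay above 0, with a median log2 fold change of 0.083 (male minus female), against 49.3% of genes and a median of -0.0030 over all tested genes. Scaled by library size alone, 3 of the 6 lay above 0. Together the 7 genes held 0.0126% to 0.0174% of the counts of a male library and 0.0145% to 0.0168% of a female one.

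**Figure D1:**
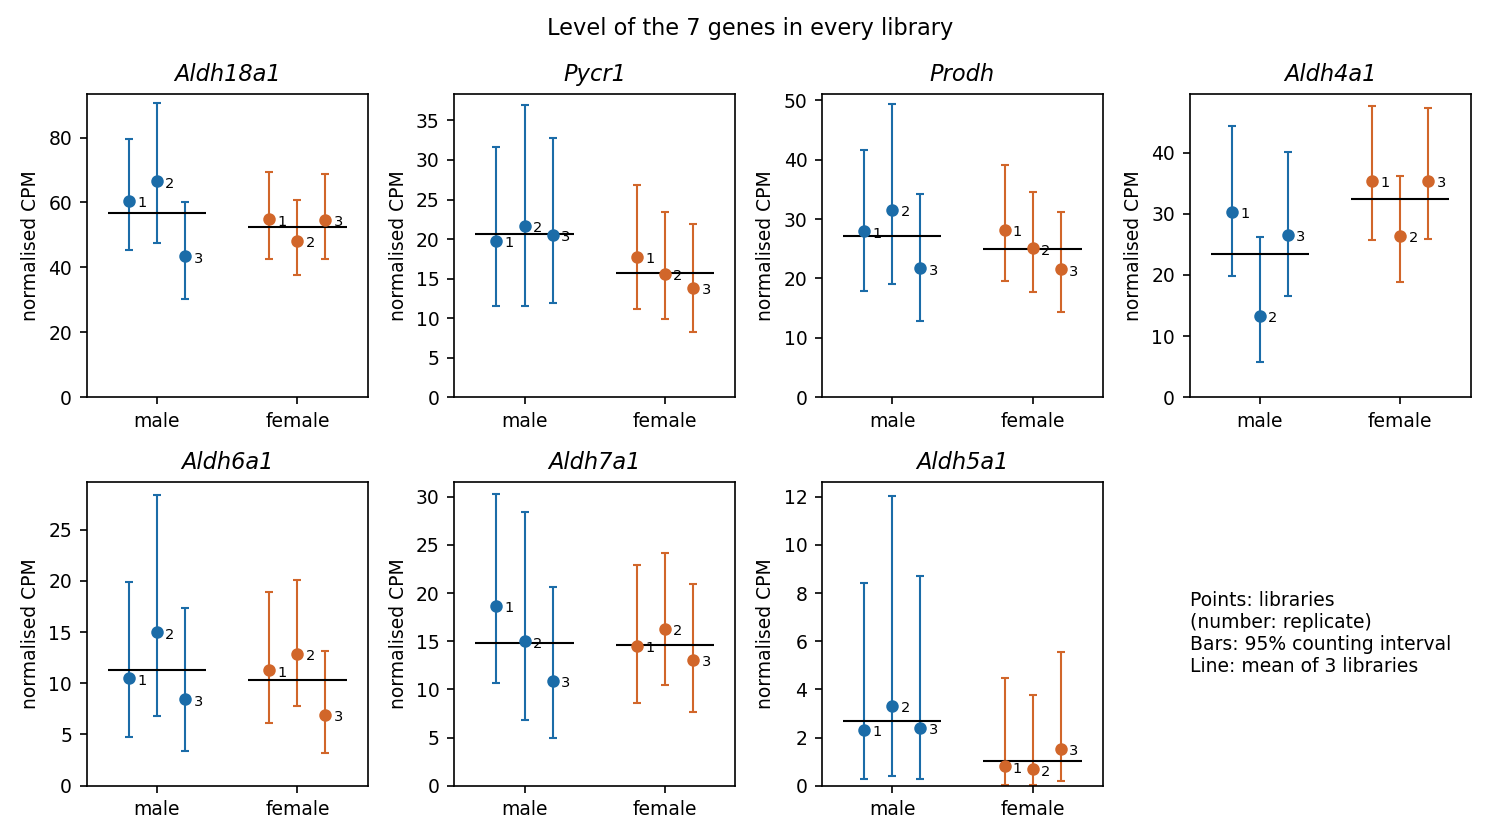
Normalised CPM of each gene in every library, males at left and females at right; bars are exact 95% Poisson counting intervals and the horizontal line is the mean of 3 libraries. The male and female points overlap for Aldh18a1, Prodh, Aldh4a1, Aldh6a1 and Aldh7a1, and lie apart for Pycr1 and Aldh5a1, with counting intervals that overlap.

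Per kilobase of the longest coding transcript, Aldh18a1 had the highest level of the 7 and Aldh5a1 the lowest. Aldh18a1 averaged 16.1 ± 3.41 CPM per kilobase in males and 14.9 ± 1.08 in females (SD, n = 3 each). Prodh followed with 11.4 ± 2.10 in males and 10.5 ± 1.39 in females, then Aldh4a1 with 6.91 ± 2.64 in males and 9.59 ± 1.54 in females. Pycr1 had 7.08 ± 0.315 in males and 5.39 ± 0.664 in females. Per kilobase, this is the one place where the order of the sexes' own means differs, since in males Pycr1 stood above Aldh4a1. That rests on male replicate 2, the only library where Aldh4a1, with 8 counts, lay below Pycr1. Aldh7a1 had 3.59 ± 0.943 in males and 3.54 ± 0.385 in females, and Aldh6a1 had 3.32 ± 0.983 in males and 3.05 ± 0.905 in females. Aldh5a1 had 0.476 ± 0.0980 in males and 0.178 ± 0.0824 in females. Aldh18a1 lay above Prodh in 6 of 6 libraries although their ranges over libraries overlapped. Prodh lay above Aldh4a1, Aldh4a1 above Pycr1 and Aldh7a1 above Aldh6a1 in 5 of 6 libraries each, so these neighbours do not differ beyond their spread. The range of Pycr1 per kilobase did not overlap that of Aldh7a1, nor that of Aldh6a1 that of Aldh5a1. In CPM not divided by length, the ranges of Pycr1 (13.85 to 21.62) and Aldh7a1 (10.84 to 18.63) overlapped. Those of Aldh18a1 (43.38 to 66.52) and Prodh (21.55 to 31.6) did not. Counts from 3' ends need not grow with transcript length. Without division by length, the only change in the order of means over 6 libraries is that Aldh4a1 (27.9 CPM) stands above Prodh (26.0 CPM). Aldh4a1 then lay above Prodh in every library but male replicate 2. The undivided male means put Prodh (27.1 CPM) above Aldh4a1 (23.4 CPM), and Aldh4a1 above Pycr1 (20.6 CPM). The undivided female means put Aldh4a1 (32.4 CPM) above Prodh (24.9 CPM), so this pair is where the order differs by sex. Among all tested genes, the mean CPM of Aldh18a1 was at the percentile 58.3 and that of Aldh6a1 at 3.62, so Aldh6a1 is counted near the lower limit of what was tested.

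Proline synthesis begins with Aldh18a1 (ENSMUSG00000025007; chromosome 19, 40550257 to 40588463, GRCm38), whose enzyme commits glutamate to the pathway. It had 60.6, 66.5 and 43.4 CPM in male replicates 1 to 3, against 54.8, 48.1 and 54.6 CPM in the female ones. The male libraries were both the highest and the lowest of the 6, so the sexes overlapped. The log2 fold change was 0.10 ± 0.18 (SE; edgeR adjusted p = 0.897), and its 95% interval spans 0.827-fold to 1.39-fold. With 338 counts in all, Aldh18a1 was the most precisely measured of the 7. Without male replicate 2 its log2 fold change was -0.0061.

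Pycr1 (ENSMUSG00000025140; chromosome 11, 120635712 to 120643769) encodes a reductase for the last step of synthesis. Its level was 19.8, 21.6 and 20.5 CPM in the male libraries, against 17.7, 15.6 and 13.9 CPM in the female ones. All male libraries lay above all female ones, as they did for 7.57% of all tested genes, while for 8.03% all female libraries lay above all male ones. The mean was 20.6 ± 0.919 CPM in males and 15.7 ± 1.94 in females (SD, n = 3 each), a log2 fold change of 0.39 ± 0.27 that did not pass (edgeR adjusted p = 0.642). Counting error was larger than this gap: the 47 male and 63 female counts give a male to female ratio of 1.31 with an exact 95% binomial interval of 0.878 to 1.94. The fold change stayed above 0 under all 14 alternatives, between 0.30 and 0.47 on the log2 scale, and none passed (adjusted p from 0.577 to 1.00).

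The start regions of both synthesis genes are shown because Pycr1 and Aldh18a1 are known to respond to ATF4, the factor of the amino acid response, and to MYC, a transcription factor of growing cells. The windows are RefSeq's on GRCm38.p6, from 250 bases before to 50 bases after the gene's start, at chr11:120643699-120643998 and chr19:40588414-40588713, both on the minus strand. Capitals mark matches on either strand to the ATF4 composite element (TGATGNAA), the MYC type E box (CACGTG), the CCAAT box (CCAAT) and the GC box (GGGCGG).
Pycr1: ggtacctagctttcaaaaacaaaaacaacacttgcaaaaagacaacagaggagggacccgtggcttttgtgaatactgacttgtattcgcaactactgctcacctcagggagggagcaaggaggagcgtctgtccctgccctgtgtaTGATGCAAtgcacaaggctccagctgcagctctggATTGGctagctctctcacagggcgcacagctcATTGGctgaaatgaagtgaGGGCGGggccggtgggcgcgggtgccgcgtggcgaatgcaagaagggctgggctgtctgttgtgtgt
Aldh18a1: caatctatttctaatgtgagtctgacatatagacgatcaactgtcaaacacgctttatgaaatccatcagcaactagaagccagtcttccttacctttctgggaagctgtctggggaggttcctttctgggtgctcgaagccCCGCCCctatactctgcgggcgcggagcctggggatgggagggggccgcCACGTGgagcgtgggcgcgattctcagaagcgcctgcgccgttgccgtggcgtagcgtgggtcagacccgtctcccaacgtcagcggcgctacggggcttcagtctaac
In Pycr1, the ATF4 element lies 103 to 96 bases before the start, followed by 2 CCAAT boxes on the other strand and 1 GC box. This element is found in 3.97% of 32851 RefSeq promoter windows of this length. In Aldh18a1, the E box lies 59 to 54 bases before the start and is found in 7.15% of windows. The CCAAT box and the GC box are common, at 37.4% and 35.7% of windows, and no match overlaps another here. A match is a description of letters and not of binding. Atf4 itself had 312, 301 and 326.5 CPM in male libraries, against 264, 249 and 222 CPM in female ones. These do not overlap, with a log2 fold change of 0.36 ± 0.12 that did not pass (edgeR adjusted p = 0.228). Myc averaged 178 ± 16.6 CPM in males and 166 ± 11.8 in females (log2 fold change 0.11 ± 0.12, adjusted p = 0.806 by the same test).

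Pycr1 had a mean of 18.2 CPM over the 6 libraries, against 57.4 CPM for Pycrl, the gene of the cytosolic enzyme for the same step. Divided by transcript length, the levels were 6.24 and 42.9 CPM per kilobase. Pycrl had 52.4, 86.5 and 59.0 CPM in male libraries, against 49.9, 48.8 and 47.7 CPM in female ones. The groups did not overlap, and male replicate 2 stood above the rest. The log2 fold change of Pycrl was 0.40 ± 0.18 (95% interval 1.01-fold to 1.71-fold). Oat, which makes pyrroline-5-carboxylate from ornithine, had 141, 190 and 137 CPM in male libraries and 123, 115 and 135 CPM in female ones. The groups again did not overlap, with male replicate 2 the highest, and the log2 fold change was 0.31 ± 0.14 (1.02-fold to 1.51-fold). Neither passed (edgeR adjusted p = 0.405 for Pycrl and 0.385 for Oat). The list of proline steps outside the 7 genes held 5 tested genes, of which 0 passed edgeR's test and 2, Pycrl and Oat, were below an unadjusted 0.05, both higher in males, or 40.0% of the list against 11.3% of all tested genes. Its other genes, Eprs, which charges the tRNAs of glutamate and proline, P4ha1, a prolyl hydroxylase, and Pepd, which frees proline from dipeptides, had log2 fold changes of -0.15, -0.017 and -0.11. Pepd did not overlap either, but was higher in females, with 50.1, 49.9 and 47.0 CPM in male and 50.7, 56.2 and 51.6 CPM in female libraries. The sexes thus did not overlap in 60.0% of the list, against 15.6% of all tested genes. P4ha2 and Pars2 had 4 and 50 counts in all and were not tested.

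**Figure D2:**
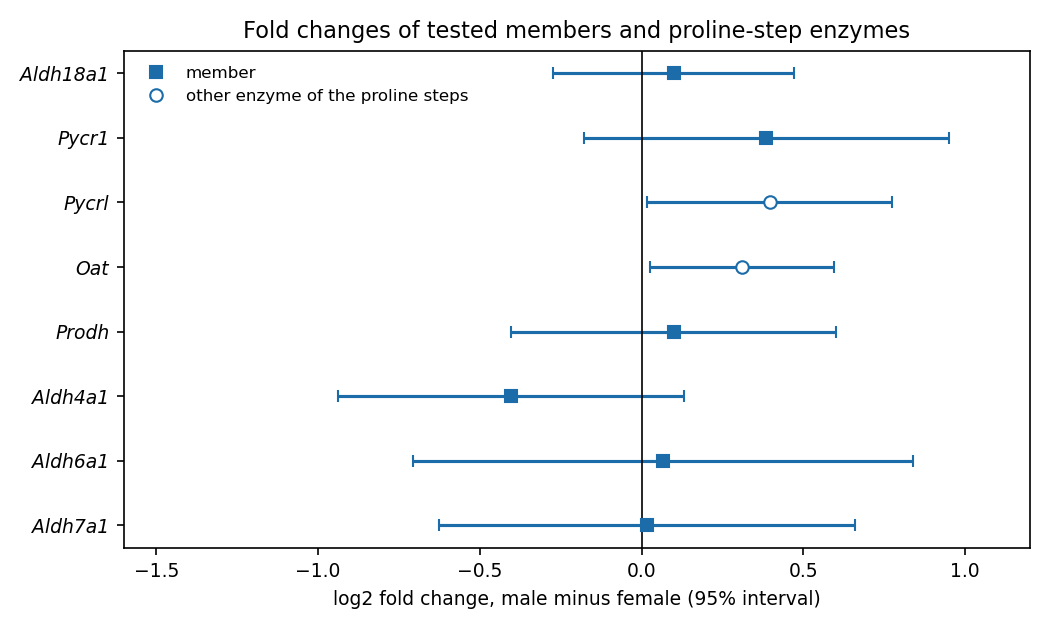
Log2 fold changes (male minus female) with 95% intervals for the 6 tested genes of the set (filled squares) and for Pycrl and Oat (open circles). The intervals of the 6 filled squares cover 0, and those of Pycrl and Oat start just above it, at 0.018 and 0.025.

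Proline breakdown begins with Prodh (ENSMUSG00000003526; chromosome 16, 18060357 to 18090203), which passes electrons from proline to the respiratory chain. It had 27.95, 31.6 and 21.7 CPM in the male libraries, against 28.2, 25.1 and 21.5 CPM in the female ones. The sexes overlapped, with a log2 fold change of 0.10 ± 0.24 (edgeR adjusted p = 0.932; 95% interval 0.757-fold to 1.52-fold). Its 3' end lies within the span of Dgcr6 on the other strand, with 0 shared exon bases.

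Aldh4a1 (ENSMUSG00000028737; chromosome 4, 139622866 to 139649690) carries out the next step, to glutamate, and was the tested gene of the set with a fold change below 0. It had 30.3, 13.3 and 26.5 CPM in the male libraries, against 35.4, 26.4 and 35.4 CPM in the female ones. Male replicate 2 was the lowest of the 6, from 8 counts (exact 95% Poisson interval 5.74 to 26.2 CPM), while male replicates 1 and 3 lay within the female range. The mean was 23.4 ± 8.92 CPM in males and 32.4 ± 5.20 in females (SD, n = 3 each). Its log2 fold change was -0.40 ± 0.26 (edgeR adjusted p = 0.586; 95% interval 0.522-fold to 1.10-fold). Without male replicate 2 it was -0.18, and without male replicate 1 it was -0.62 with an adjusted p of 0.304 by the same test. Over 14 alternatives the adjusted p ran from 0.304 to 1.00. The gene model Gm21969 on the same strand shares 1595 exon bases with Aldh4a1 and covers its 3' end. Gm21969 is not among the genes of the count table, so no counts went to it, but reads may have been dropped there.

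Within a library, counts of synthesis and breakdown genes can be set against each other free of library size. Aldh18a1 and Pycr1 together held 58.0%, 66.2% and 57.0% of the counts of these genes plus Prodh and Aldh4a1 in the male libraries, against 53.2%, 55.3% and 54.6% in the female ones. All male libraries lay above all female ones, with male replicate 2 the highest, and the counting intervals of all 6 overlapped. The mean was 60.4% ± 5.08 in males and 54.4% ± 1.04 in females (SD, n = 3 each). This share was chosen after the values were seen and has no test. Of the breakdown pair, Aldh4a1 held 52.0%, 29.6% and 55.0% of the counts of Aldh4a1 and Prodh in male libraries, against 55.7%, 51.3% and 62.2% in female ones. Male replicate 2 was the lowest, and the other male libraries lay within the female range.

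**Figure D3:**
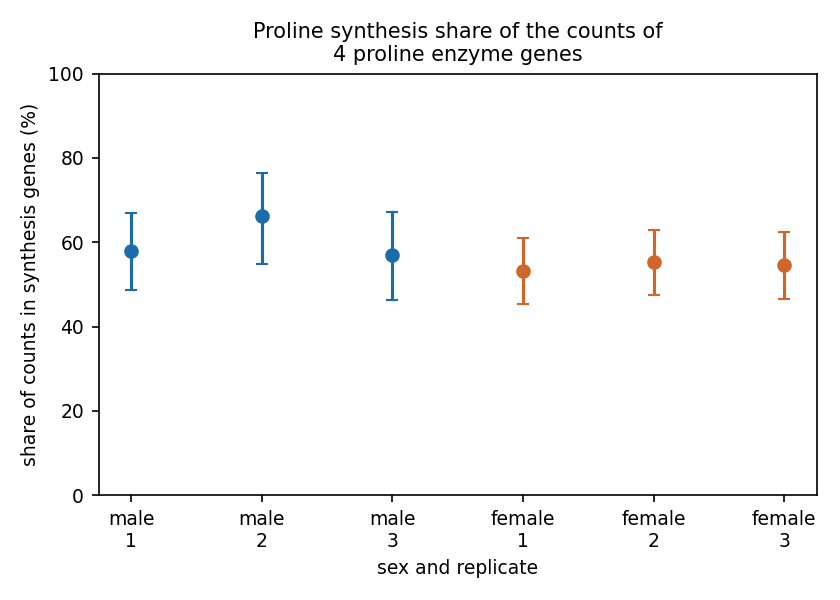
Share (percent) of the counts of Aldh18a1, Pycr1, Prodh and Aldh4a1 that fell in the synthesis genes Aldh18a1 and Pycr1, per library, males at left, with exact 95% binomial intervals. Male replicate 2 is highest at 66.2% and female replicate 1 lowest at 53.2%, and the intervals of all 6 libraries overlap.

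For valine, Aldh6a1 (ENSMUSG00000021238; chromosome 12, 84430717 to 84451004) encodes the enzyme that makes propionyl-CoA from methylmalonate semialdehyde. It had 10.5, 14.97 and 8.44 CPM in male libraries, against 11.3, 12.9 and 6.93 CPM in female ones. Both sexes spread alike and overlapped. The log2 fold change of 0.066 ± 0.37 (edgeR adjusted p = 0.973) has a 95% interval of 0.612-fold to 1.79-fold, from 67 counts in all. Its sign was negative under 3 of 13 alternatives, library-size scaling among them. Bbof1, on the other strand, shares 1078 exon bases with Aldh6a1 at its 3' end and held 14 counts.

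Around Aldh6a1, the list of branched-chain amino acid breakdown had 19 tested genes, of which 0 passed edgeR's test. Its median log2 fold change was 0.12, with 13 of 19 above 0, against 49.3% of all tested genes. Below an unadjusted 0.05 were 2 genes, Dld and Acat1, both higher in males, or 10.5% of the list, against 11.3% of all tested genes. Dld, the dihydrolipoyl dehydrogenase of several ketoacid dehydrogenases, had 113, 125 and 137 CPM in male libraries and 95.8, 84.7 and 101 CPM in female ones. These did not overlap, and the log2 fold change was 0.42 ± 0.14 (edgeR adjusted p = 0.224). Without male replicate 1 it passed, with an adjusted p of 0.0462, but in that fit 4.62% of all tested genes passed. Acat1, an acetyl-CoA acetyltransferase at the end of isoleucine breakdown, averaged 148 ± 18.4 CPM in males and 121 ± 10.2 in females (log2 fold change 0.27 ± 0.13). Echs1, an enoyl-CoA hydratase, averaged 123 ± 7.64 CPM in males and 112 ± 10.1 in females, and Bckdhb, a subunit of the branched-chain dehydrogenase, had the largest fold change, 0.50 ± 0.38 on the log2 scale, from 76 counts. Its male and female libraries overlapped, and without male replicate 1 its log2 fold change was -0.087. Downstream, none of the 10 tested genes from propionyl-CoA to succinyl-CoA passed, and 0 were below an unadjusted 0.05 by edgeR. Their median log2 fold change was 0.077, and -0.012 when scaled by library size alone. Mcee, the methylmalonyl-CoA epimerase, had the largest, 0.38 ± 0.20, and the succinyl-CoA ligase subunits Sucla2 and Suclg1 had 0.28 ± 0.14 and 0.022 ± 0.14. Mmadhc, which handles the cobalamin cofactor, had -0.0074 ± 0.16.

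For lysine, Aldh7a1 (ENSMUSG00000053644; chromosome 18) encodes the dehydrogenase of aminoadipate semialdehyde. It had 18.6, 14.97 and 10.8 CPM in male libraries, against 14.5, 16.3 and 13.1 CPM in female ones. The male libraries lay on both sides of the female ones. The log2 fold change was 0.016 ± 0.31 (edgeR adjusted p = 0.994), with a 95% interval of 0.648-fold to 1.58-fold and a sign that changed under 5 of 14 alternatives. Phax, on the other strand, shares 300 exon bases with Aldh7a1 away from its 3' end.

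The entry of lysine breakdown was hardly counted. Aass, which joins lysine to ketoglutarate, had 2 counts over the 6 libraries, and Dhtkd1, which acts after Aldh7a1, had 4. The list had 5 tested genes with a median log2 fold change of 0.041, and -0.048 when scaled by library size alone. By edgeR 0 passed and 0 were below an unadjusted 0.05. Aldh9a1, a dehydrogenase that acts on aminobutyraldehydes, averaged 166 ± 21.2 CPM in males and 182 ± 20.96 in females. It had the largest change of the list, -0.13 ± 0.13. Dlst, a subunit shared with the citric acid cycle, averaged 167 ± 4.70 CPM in males and 157 ± 18.7 in females, and Phykpl, a lyase of phosphohydroxylysine, 25.5 ± 2.22 CPM in males and 24.6 ± 1.39 in females.

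For GABA, Aldh5a1 (ENSMUSG00000035936; chromosome 13, 24907579 to 24937661) was barely counted. It had 2, 2 and 2 counts in male libraries and 1, 1 and 2 in female ones, or 2.33, 3.33 and 2.41 CPM in males against 0.805, 0.677 and 1.54 CPM in females. The male levels lay above the female ones, but the ratio of 2.63 has an exact 95% binomial counting interval of 0.624 to 12.7, so no difference was detectable at this depth. With 10 counts in all, Aldh5a1 was not tested. The antisense gene 4932702P03Rik, which is not among the genes of the count table, covers its 3' end and shares 796 exon bases. Of the other genes of this pathway, Slc6a13, a GABA transporter, had 34 counts and Adhfe1, which oxidises hydroxybutyrate to succinate semialdehyde, had 3, all in male replicate 1. Among 3 tested genes, 0 passed edgeR's test, 0 were below an unadjusted 0.05, and the median log2 fold change was -0.22. Male replicate 2 was the lowest of the 6 libraries in 3 of the 3. Akr7a5, a reductase that can take succinate semialdehyde, averaged 33.4 ± 8.78 CPM in males and 32.5 ± 5.89 in females. Ogdh, the ketoglutarate dehydrogenase, averaged 174 ± 27.1 CPM in males and 204 ± 2.95 in females without overlap (log2 fold change -0.22 ± 0.13; edgeR adjusted p = 0.542). D2hgdh, the dehydrogenase of the D form of hydroxyglutarate, had -0.22 ± 0.36.

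Glutamate, where proline synthesis starts and breakdown ends, was represented by 10 tested genes. By edgeR 0 passed, and 2 were below an unadjusted 0.05, Slc25a22 and the glutamine transporter Slc1a5 (log2 fold change -0.34), both with lower levels in males. That is 20.0% of the list, against 11.3% of all tested genes in either direction. The median log2 fold change was -0.25, and 9 of 10 lay below 0, against 50.7% of all tested genes. The sexes did not overlap in 30.0% of the list, with 3 genes lower and 0 higher in males, against 15.6% of all tested genes. Slc25a22, a mitochondrial glutamate carrier, had 26.8, 16.6 and 14.5 CPM in male libraries, against 30.6, 29.8 and 27.7 CPM in female ones. The sexes did not overlap, yet the log2 fold change of -0.58 ± 0.26 did not pass (edgeR adjusted p = 0.388). Slc25a12, a carrier of aspartate and glutamate, averaged 102 ± 14.9 CPM in males and 122 ± 1.51 in females, without overlap. Got2, the mitochondrial aspartate aminotransferase, averaged 154 ± 6.94 CPM in males and 184 ± 26.8 in females, and Glud1, glutamate dehydrogenase, 229 ± 10.2 CPM in males and 237 ± 13.3 in females.

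Of the 11 tested genes of the ATF4-linked list, 0 passed edgeR's test. Below an unadjusted 0.05 were 1 gene higher in males, Atf4, and 2 lower in males, the folate enzyme Mthfd2 (log2 fold change -0.44) and the amino acid transporter Slc7a5 (-0.42). That is 27.3% of the list, against 11.3% of all tested genes. The sexes did not overlap in 54.5% of the list, with 4 genes higher and 2 lower in males, against 15.6% of all tested genes. The median log2 fold change was -0.048. Ddit3, a stress factor induced by ATF4, had the largest change, 0.51 ± 0.32. It had 15.7 ± 0.669 CPM in males and 11.1 ± 2.46 in females, without overlap. Shmt2, which makes glycine from serine, averaged 191 ± 24.0 CPM in males and 206 ± 6.65 in females, and Psat1, of serine synthesis, 168 ± 13.5 CPM in males and 165 ± 9.68 in females. In the list of NADPH supply, which PYCR enzymes can draw on, 0 of 5 tested genes passed edgeR's test. G6pdx, the first enzyme of the pentose phosphate path, was below an unadjusted 0.05 (log2 fold change -0.28 ± 0.12, adjusted p = 0.381 by the same test). It had 195 ± 23.2 CPM in males and 238 ± 15.2 in females, without overlap. Idh2 and Nadk, a mitochondrial source of NADPH and a kinase that makes NADP, had -0.030 ± 0.12 and -0.11 ± 0.12. Over all 8 lists, 0 of 68 tested genes passed edgeR's test, and 5 higher and 5 lower in males were below an unadjusted 0.05, which is 14.7% of the 68, against 11.3% of all tested genes. The libraries of the sexes did not overlap in 23.5% of the 68, with 8 genes higher and 8 lower in males, against 15.6% of all tested genes. By list, this share ran from 0.0% for lysine and 5.26% for branched-chain breakdown to 54.5% for the ATF4-linked list and 60.0% for proline steps.

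**Figure D4:**
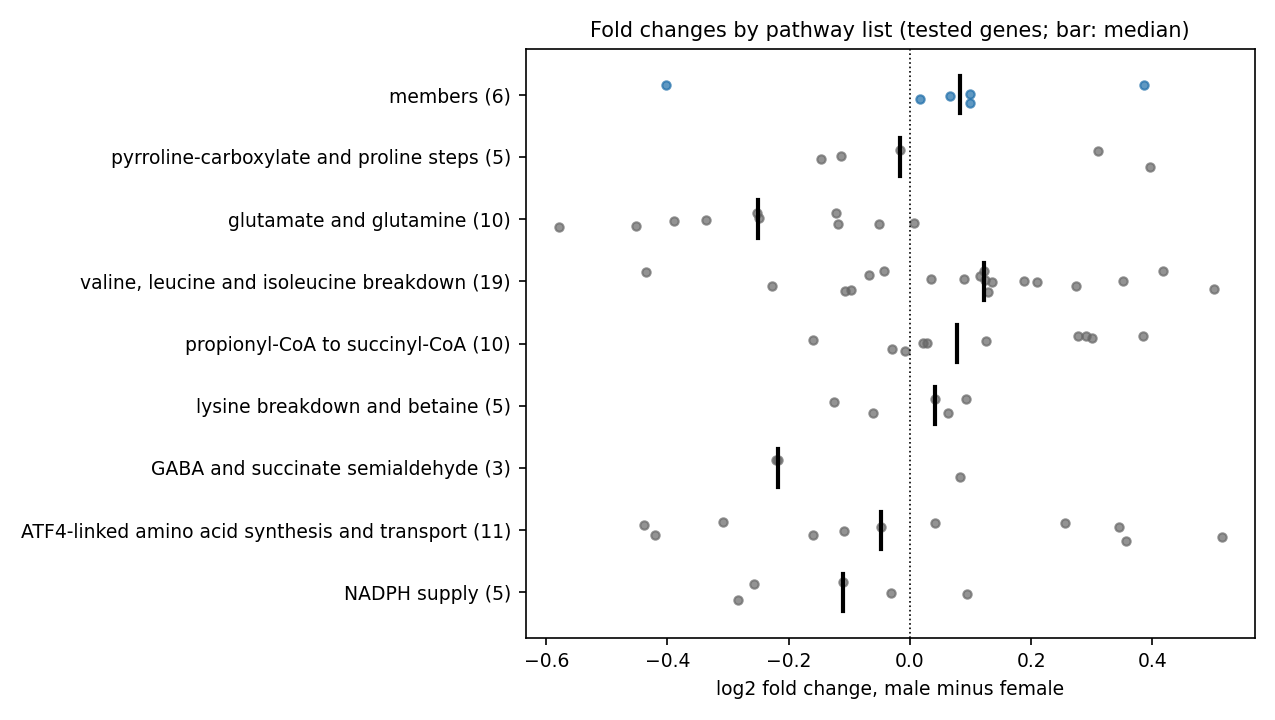
Log2 fold changes (male minus female) of the tested genes of the set and of each pathway list; each point is a gene, the bar is the median and the number in parentheses counts the genes. The glutamate and glutamine list has its median at -0.25 and the branched-chain list at 0.12, and no point passed the test.

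Over the 6 libraries, the tested genes whose profile was closest to that of Aldh18a1 were Clptm1, Cdk7 and Metap1, with root mean square distances of 0.047, 0.048 and 0.055 between log2 CPM centred on each gene's mean, against a median of 0.29 over all genes compared. Closest to Aldh4a1 were Cic, Ptpre and Cds2, at 0.078, 0.079 and 0.083, against a median of 0.47. These were picked as the smallest distances of all genes compared, so they must lie below the median. Counting error is part of each profile, and shared regulation was not tested.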

How the data were processed

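RNA was measured in 3 male and 3 female libraries made by BRB-seq, which tags the 3' ends of transcripts with a sample barcode and a molecular identifier. The authors deposited unnormalised gene counts, per the file headers. Per the submitters' processing notes, HISAT2 2.2.1, featureCounts 2.0.1, Trim Galore 0.6.7, DESeq2 and UMI-tools were used, with the builds GRCm38 and GRCh38. The sources used here do not say whether molecular identifiers were collapsed or strand was used: PCR copies may be among the counts, and reads of antisense genes may be shared. Intervals and ratios cover counting error only.

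All 21606 gene identifiers matched GENCODE M21 (GRCm38), which gave coordinates and transcript lengths. Genes were kept by filterByExpr (minimum count 10, minimum total 15), which left 8460. They were scaled by TMM and tested, male minus female, with edgeR 4.0.16 (quasi-likelihood F test, no covariate) in R 4.3.3 over the whole table. Standard errors were derived from the log2 fold change and F. The steps were tested on simulated data. Alternatives were other scalings, other filters, DESeq2 1.42.0 without its own filter, limma-voom (limma 3.58.1), a replicate block and each library left out.

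The members, lists and markers were chosen with earlier results of these data known, so no list is tested. A few genes of the lists are not reported here and are left out of the lists' counts. Named genes are all members, the other measured genes of the proline and GABA lists, and from each other list those past the threshold or, with none, the 3 most abundant, plus the largest change. The 3 closest profiles are given for the 2 members with most counts, with a prior count of 2 in log2 CPM. Outside this rule, Myc, Slc1a5, Mthfd2, Slc7a5, Aass, Dhtkd1 and the sex and overlapping genes were named after their values were seen.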

Additional observations from a re-analysis of the deposited data

How the results depend on the processing

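None of the genes of the set that were tested passed under any of the 14 alternatives (6 tested in most, 7 with no filter and 5 under the stricter filter), and the signs of Aldh4a1 and Pycr1 did not change, with leave-one-out ranges of -0.62 to -0.18 and 0.31 to 0.47 on the log2 scale. Fold changes near 0 changed sign. That of Aldh7a1 was -0.00025 with upper-quartile scaling, -0.070 by library size and -0.015 with no filter, and ran from -0.22 to 0.22 with single libraries left out. That of Aldh6a1 was -0.021 by library size and ran from -0.15 to 0.27, with no value under the stricter filter. Aldh18a1 ran from -0.0061 to 0.27 and Prodh from -0.0011 to 0.24, both lowest without male replicate 2.

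In the whole table, 36 genes had higher and 13 had lower levels in males. With single libraries left out these ran from 19 to 337 and from 4 to 78, highest without male replicate 1 and lowest without male replicate 3. They were 81 and 35 with no filter, 34 and 7 by DESeq2, and 17 and 1 by DESeq2 with its own filter, an alternative added after the data were seen that left 587 genes and no member. By library size they were 29 and 23, and 8 were higher in females by limma-voom. With the replicate block they were 56 and 22 and no member passed. Deviations of same-numbered libraries correlated weakly, at 0.030, 0.034 and 0.048, yet each male library correlated best with its own number. Whether the numbers pair the samples cannot be told from these values.

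By library size, which moved the median of all genes by -0.089, list medians were -0.11 for proline steps, against -0.017 by TMM, -0.34 for glutamate, 0.032 for branched-chain breakdown, -0.048 for lysine, -0.14 for the ATF4-linked list and -0.20 for NADPH supply. With no filter, which added genes to the lists, they were -0.092 for lysine and -0.21 for NADPH supply. With single libraries left out they ran from 0.023 to 0.13 for branched-chain breakdown, -0.17 to -0.080 for NADPH supply, 0.0498 to 0.19 from propionyl-CoA to succinyl-CoA and -0.30 to 0.012 for GABA, where without a female library 2 genes were tested in place of 3. The causes of these moves were not tested. Depth limits the members: the tested ones had 67 to 338 counts over 6 libraries, and the narrowest 95% interval, that of Aldh18a1, spans 0.827-fold to 1.39-fold.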

Other observations

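Male replicate 2, which had the lowest total count, was the lowest of the 6 libraries in 32.4% of the 68 tested genes of the pathway lists and the highest in 25.0%, against 26.3% and 26.1% of all tested genes. It was the lowest in 6 of 10 genes of the glutamate list, in 6 of 11 of the ATF4-linked list and in 3 of 3 of the GABA list. It was the highest in 7 of 19 of branched-chain breakdown and in 4 of 10 from propionyl-CoA to succinyl-CoA, where it was the lowest in 0. These counts were made after the values were seen.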
